A study of Mus musculus with 95 samples.

Results

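The adult globin genes Hba-a1, Hba-a2, Hbb-bs and Hbb-bt and the erythroid heme synthesis gene Alas2 were followed in RNA from the nucleus accumbens of 49 mice. They were 5 of 55471 features in the count table and were picked by symbol, with earlier results of the same counts known. Hba-a2 was then already among the genes that differed between treatments. Treatment differences of the 5 genes are therefore given as a description, with a standard error and without a test. Tests are given for the comparison of fractions, for the sexes and for relations between the genes.

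All mice were of a mixed B6;FVB strain and carried the transgene Tg(Aldh1l1-EGFP/Rpl10a)JD130Htz, in which Aldh1l1, a gene active mainly in astrocytes, drives a ribosomal protein tagged with a fluorescent protein. RNA on tagged ribosomes was purified from each punch to give the IP library, and an aliquot taken beforehand gave the input library, which stands for the whole tissue. Dependent mice went through CIE-2BC, in which 5 rounds of chronic intermittent ethanol exposure (CIE) are combined with drinking from a choice of bottles (2BC). Non-dependent mice had 2BC without CIE, and naive mice had no ethanol. There were 18 dependent, 13 non-dependent and 15 naive IP libraries, and 18 dependent, 15 non-dependent and 16 naive input libraries. Both fractions were available for 46 mice. Ages are not stated in the labels used here.

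Total counts ran from 14314236 to 27146790 in IP libraries and from 12803108 to 23948193 in input libraries. The labels name 6 batches: batches C and G held 1 dependent mouse each, batch I held no naive mice and batch L held no non-dependent mice, so J and K were the batches with all 3 treatments. Astrocyte markers checked the purification, since 8 of 8 were higher in IP than in input libraries, against 31.8% of all genes tested, with a median log2 difference of 3.16. Naive males K14 and L23, naive female L33 and dependent female J06 stood apart from their groups in one or more of the 5 genes.

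Haemoglobin of adult mice is built from pairs of alpha-globin and beta-globin chains, each holding a heme group that binds oxygen. Hba-a1 and Hba-a2 are neighbouring copies that encode alpha-globin, and Hbb-bs and Hbb-bt are neighbouring copies that encode beta-globin. Alas2 encodes 5-aminolevulinate synthase, the enzyme that starts heme synthesis in developing red cells, while its relative Alas1 does so in other cells. In brain, globin messages come with the blood left in vessels, and transcripts have also been described in some neurons and glia.

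The alpha-globin copies are shown first because their counts parted between groups of mice. In GRCm38, Hba-a1 (ENSMUSG00000069919) lies on the + strand at chr11:32283511-32284465 and Hba-a2 (ENSMUSG00000069917) on the same strand at chr11:32296489-32297298. Their GENCODE transcripts, of 699 and 554 bases, shared 538 aligned bases with 1 mismatch, and both encode the same protein of 142 residues. The mismatch, C381T, is counted in coding bases from the A of the start codon, with the Hba-a1 base first. It lies in exon 3 of 3, at position 32284343 in Hba-a1 and 32297160 in Hba-a2. The surrounding 29 bases are printed with that base in capitals.
Hba-a1: catgcctctctggaCaaattccttgcctc
Hba-a2: catgcctctctggaTaaattccttgcctc
Apart from this base, the transcripts differ in the length of their ends. Of all stretches of 100 bases, 116 of 455 in Hba-a2 occurred in that transcript and not in Hba-a1, and 261 of 600 in Hba-a1 did not occur in Hba-a2. Reads from the remaining stretches could have come from either gene. How the authors' counting treated such reads is not given in the sources used here, so the division of counts between the copies is uncertain, while their sum is less so.

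Hbb-bs (ENSMUSG00000052305; chr7:103826534-103828096) and Hbb-bt (ENSMUSG00000073940; chr7:103812524-103813996), both on the − strand, are less alike. Their transcripts had 39 mismatches in 619 aligned bases. In their coding sequence the copies differed by the single substitution C417T, counted as above with the Hbb-bs base first. Both encode the same protein of 147 residues. Of all stretches of 100 bases, 198 of 529 in Hbb-bs and 273 of 604 in Hbb-bt did not occur in the other copy. The division of counts between the beta copies is therefore uncertain as well. Alas2 (ENSMUSG00000025270) lies on the + strand at chrX:150547375-150570638.

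Promoters are shown because most of these genes varied together across mice, whereas Hba-a1 and Hba-a2 parted. The sequences are the 250 bases before the RefSeq transcription start in GRCm38.p6. Capitals mark matches on either strand to 4 motifs. The GATA factor motif was searched as AGATAA or as TGATAA. The box known from globin promoters for Krüppel-like factors was searched as CACCC. The others were the boxes spelled CCAAT and ATATAA, and no search letters of one motif overlap another in the printed windows. The GENCODE gene begins inside the window for each printed gene, at chr11:32283422-32283671 (+) for Hba-a1, chr7:103827929-103828178 (−) for Hbb-bs and chrX:150547167-150547416 (+) for Alas2.
Hba-a1: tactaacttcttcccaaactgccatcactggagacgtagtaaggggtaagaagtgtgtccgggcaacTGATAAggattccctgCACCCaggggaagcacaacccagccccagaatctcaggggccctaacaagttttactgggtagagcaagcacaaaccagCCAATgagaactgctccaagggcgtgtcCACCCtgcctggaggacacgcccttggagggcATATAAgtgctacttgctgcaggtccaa
Hbb-bs: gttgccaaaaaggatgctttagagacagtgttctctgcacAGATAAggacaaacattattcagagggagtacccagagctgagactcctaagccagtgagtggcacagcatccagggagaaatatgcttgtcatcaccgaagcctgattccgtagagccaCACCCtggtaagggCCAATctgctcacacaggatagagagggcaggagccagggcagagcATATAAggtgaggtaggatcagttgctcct
Alas2: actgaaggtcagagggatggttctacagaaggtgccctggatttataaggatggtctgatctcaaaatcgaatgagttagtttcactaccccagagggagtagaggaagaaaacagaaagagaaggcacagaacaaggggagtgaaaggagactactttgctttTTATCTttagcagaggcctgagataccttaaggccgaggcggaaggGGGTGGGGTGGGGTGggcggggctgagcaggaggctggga
The Hba-a2 window was identical to that of Hba-a1 over all 247 bases the windows have in common, at an offset of 3 bases. Hbb-bs and Hbb-bt matched at 184 of 234 aligned bases. A GATA motif was present in 4 of the 5 windows, with none in that of Hbb-bt, and in 16.6% of 32851 promoters of the same length. CACCC was present in all 5, against 52.0% of promoters, and the Alas2 copies read as GGGTG and adjoin each other. CCAAT was present in the 4 globin windows and in 33.8% of promoters, and ATATAA in the 4 globin windows and in 9.10% of promoters. These matches describe the letters and were not tested as binding sites.

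Levels are given as CPM, the counts of a gene scaled to the total count of its library. Per kilobase of exon, Hba-a1 and Hbb-bs had the highest levels of the 5 genes. Hba-a1 averaged 96.9 ± 46.5 CPM per kilobase in 46 IP libraries and 325 ± 208 in 49 input libraries (SD). Hbb-bs averaged 83.7 ± 40.4 CPM per kilobase in IP and 295 ± 198 in input libraries. These neighbours in the order did not differ beyond their spread. Hbb-bt followed at 13.4 ± 7.21 in IP and 47.0 ± 35.9 in input libraries. Alas2 averaged 0.437 ± 0.401 in IP and 1.18 ± 1.0 CPM per kilobase in input libraries. The place of Hba-a2 in this order, by group mean, differed between the treatment groups. In dependent mice it averaged 0.114 ± 0.173 CPM per kilobase in IP and 0.404 ± 0.302 in input libraries, against 0.342 ± 0.311 and 0.832 ± 0.558 for Alas2. In non-dependent mice it averaged 0.215 ± 0.178 in IP and 0.352 ± 0.239 in input libraries, against 0.648 ± 0.561 and 1.52 ± 1.02 for Alas2. In naive mice it averaged 23.9 ± 13.4 in IP and 63.2 ± 33.1 in input libraries, against 15.9 ± 6.53 and 52.3 ± 22.2 for Hbb-bt, K14 and L23 included. Hba-a2 was thus the lowest of the 5 by mean in dependent and non-dependent mice and the third highest in naive mice. In CPM, the plot of levels by library shows that IP medians lay below input medians and that Hba-a2 was the gene whose naive libraries stood apart from the other treatments.

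**Figure D1:**
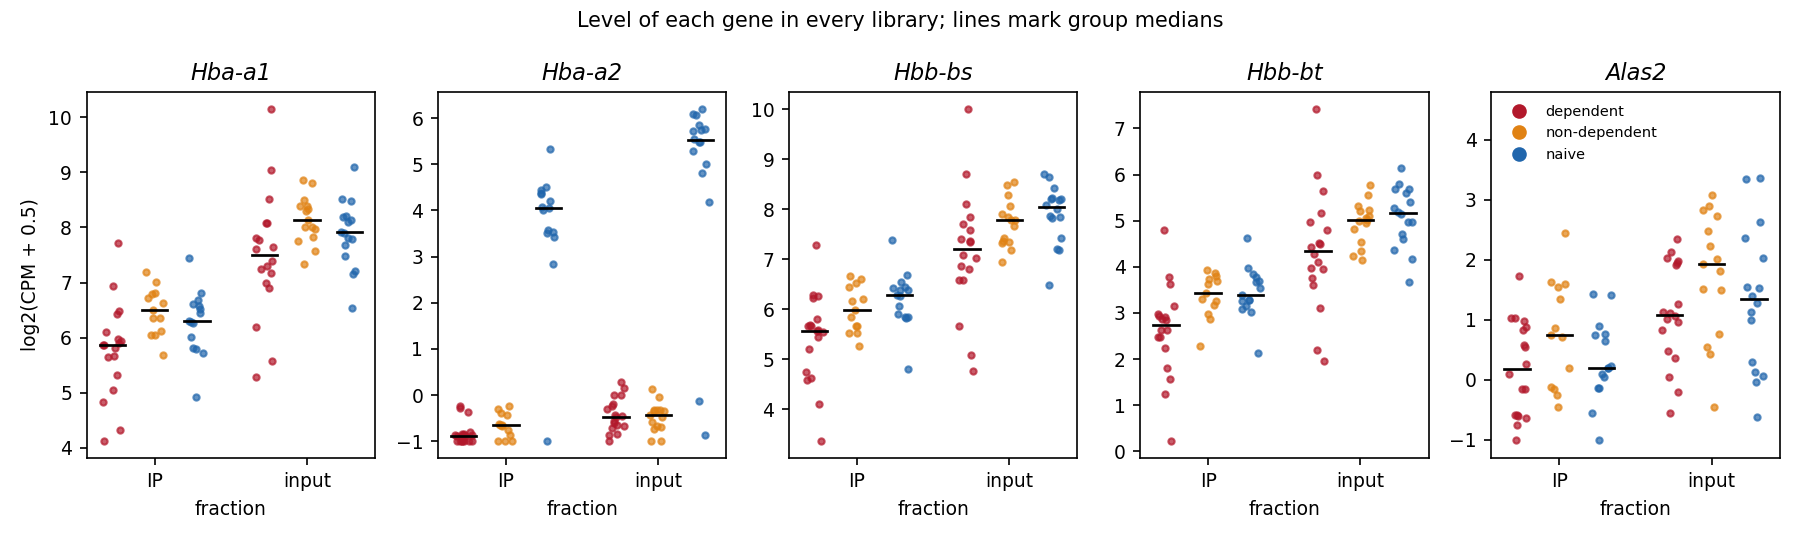
Level of each gene in every library, as log2(CPM + 0.5), by fraction and treatment (dependent left, non-dependent middle, naive right). Each point is a library and each line a group median. For Hba-a2, most naive libraries sit above 2 on this scale, while every dependent and non-dependent library sits below 1.

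Hba-a2 was close to absent in every dependent and non-dependent mouse and was present in most naive mice. In IP libraries the lowest, median and highest Hba-a2 levels were 0, 0.0437 and 0.354 CPM in dependent mice, 0, 0.134 and 0.354 CPM in non-dependent mice, and 0, 16.004 and 39.9 CPM in naive mice. In input libraries they were 0, 0.224 and 0.713 CPM in dependent mice, 0, 0.246 and 0.590 CPM in non-dependent mice, and 0.0485, 45.4 and 73.3 CPM in naive mice. The groups met only through naive males K14 and L23. K14 had 0 counts of Hba-a2 in its IP library and 6 in its input library, and L23, which had an input library alone, had 1 count. No other naive library had fewer than 112 counts, and no dependent or non-dependent library had more than 12. The division was thus one between mice and did not follow treatment in K14 and L23. Its cause was not tested.

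Expressed as a share of the counts of both alpha-globin genes, Hba-a2 separated the mice in the same way. The share ran from 0% to 0.397% in dependent IP libraries, from 0% to 0.342% in non-dependent IP libraries, and from 15.2% to 19.6% in 14 of 15 naive IP libraries. In input libraries it ran from 0% to 0.420% in dependent mice, from 0% to 0.186% in non-dependent mice, and from 14.8% to 20.3% in 14 of 16 naive mice. No library fell between 1% and 10%, 28 of the 95 libraries were above and 67 were below, and the 14 mice above in IP were the 14 above in input. K14 had a share of 0% of 1666 alpha-globin counts in IP, which allows a share of up to 0.180% at 3 counts of that total and has an upper exact binomial bound of 0.221%, and 0.0741% in input (95% exact binomial interval 0.0272% to 0.161%). L23 had 0.0272% in input (0.000689% to 0.152%). These limits and intervals cover counting error only.

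**Figure D2:**
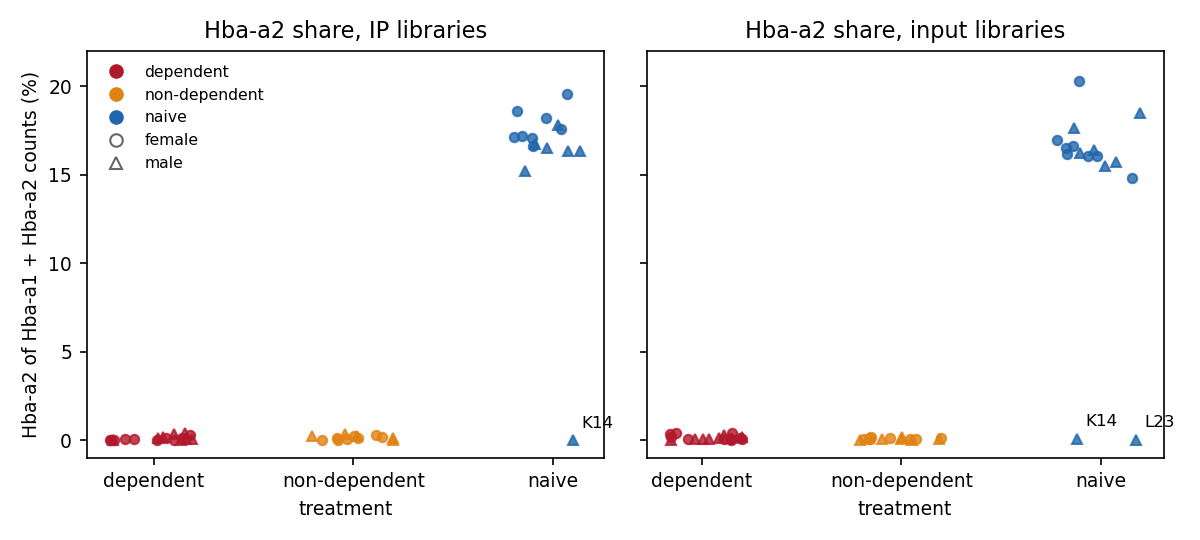
Share of Hba-a2 in the counts of Hba-a1 and Hba-a2 together, in percent, for each IP library (left panel) and each input library (right panel), by treatment and sex. The 14 naive mice with a share above 10% lie between 14.8% and 20.3%, and naive males K14 and L23 lie at the level of the dependent and non-dependent mice.

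The fitted difference of Hba-a2 between dependent and naive mice, with sex and batch as terms, was -7.36 ± 0.56 on the log2 scale in IP and -7.29 ± 0.61 in input libraries (± SE). Between non-dependent and naive mice it was -6.19 ± 0.65 in IP and -7.35 ± 0.75 in input libraries. Both differences share the naive mice. Between dependent and non-dependent mice, where every library had 12 counts or fewer, it was -1.16 ± 0.68 in IP and 0.06 ± 0.81 in input libraries. Hba-a2 passed the filter on low counts through the naive libraries, so that it had to differ among the genes tested. In IP libraries 4.49% of 20580 genes passed an adjusted p of 0.05 between dependent and naive mice (2.68% higher and 1.81% lower), 0.428% between non-dependent and naive mice and 1.53% between dependent and non-dependent mice. In input libraries these shares were 2.16%, 0.120% and 0.378% of 20897 genes. Since Hba-a2 was chosen on these contrasts, nothing is read from its place among them.

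The separation was seen within each batch that held naive mice beside others. In batch J, mean Hba-a2 was 0.329 CPM in 4 dependent, 0.353 CPM in 3 non-dependent and 56.0 CPM in 4 naive input libraries. In batch K it was 0.530 CPM in 2 dependent, 0.184 CPM in 3 non-dependent and 39.8 CPM in 4 naive input libraries, K14 among the last. In batch L it was 0.157 CPM in 3 dependent and 36.4 CPM in 8 naive input libraries, L23 among them. Both sexes of naive mice showed it: 8 of 8 female input libraries and 6 of 8 male input libraries had a share above 10%. Without K14 and L23 the naive mean was 17.1 ± 8.09 CPM in 14 IP libraries and 48.1 ± 15.9 CPM in 14 input libraries.

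In the input libraries of most naive mice Hba-a1 stood lower against beta-globin than in the other treatments. In input libraries the ratio of Hba-a1 to Hbb-bs counts had a lowest, median and highest value of 1.10, 1.29 and 1.46 in dependent mice, 1.15, 1.35 and 1.55 in non-dependent mice, and 0.870, 0.959 and 1.38 in naive mice. The naive values did not overlap the others once K14, at 1.38, and L23, at 1.23, were left out, when the highest was 1.03. Both mice were set apart by their Hba-a2 counts, and reads can be divided between the alpha copies. The lack of overlap is thus not independent of that choice, and nothing is read from it. In IP libraries the ratio ran from 0.997 to 1.73 in dependent mice, from 1.21 to 1.63 in non-dependent mice and from 0.911 to 1.45 in naive mice, where K14 was the highest. With Hba-a2 added to Hba-a1, the ratio of alpha-globin to beta-globin counts overlapped between the treatments. Its median in input libraries was 1.12 in dependent, 1.17 in non-dependent and 1.02 in naive mice, and in IP libraries 1.12, 1.21 and 1.12. In input libraries it ran from 0.945 to 1.28 in dependent, from 1.02 to 1.33 in non-dependent and from 0.925 to 1.17 in naive mice.

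Levels of Hba-a1 itself overlapped between treatments. In input libraries its lowest, median and highest levels were 38.3, 181 and 1140.2 CPM in dependent mice, 161, 280.5 and 465.7 CPM in non-dependent mice, and 92.6, 239.8 and 549.6 CPM in naive mice, where L33 was the lowest and K14 the highest. In IP libraries they were 16.9, 57.8 and 209 CPM in dependent, 51.0, 90.0 and 146 CPM in non-dependent, and 29.7, 78.5 and 175 CPM in naive mice, with L33 again the lowest. Dependent mice had both the lowest and the highest library, from females I02 and J06. The fitted difference between dependent and naive mice was -0.17 ± 0.24 in IP and 0.06 ± 0.31 in input libraries. Without J06 it was -0.35 ± 0.22 in IP and -0.24 ± 0.24 in input libraries.

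Hbb-bs, the more abundant beta-globin copy, had a lowest, median and highest level in input libraries of 26.6, 148 and 1035.1 CPM in dependent mice, 122, 219.9 and 374 CPM in non-dependent mice, and 89.5, 264 and 419 CPM in naive mice. In IP libraries they were 9.75, 47.0 and 155 CPM in dependent, 37.7, 63.0 and 101 CPM in non-dependent, and 27.6, 77.4 and 167 CPM in naive mice. J06 was the highest dependent library and L33 the lowest naive library in both fractions. The medians were lowest in dependent mice in both fractions and the ranges overlapped. The fitted difference between dependent and naive mice was -0.48 ± 0.24 in IP and -0.21 ± 0.31 in input libraries. Without J06 the difference in input libraries was -0.53 ± 0.24.

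Hbb-bt, the minor copy by counts, again had its lowest medians in dependent mice. Its median input level was 19.9 CPM in dependent, 31.8 CPM in non-dependent and 35.5 CPM in naive mice, within ranges of 3.36 to 172, 17.3 to 53.9 and 12.3 to 70.5 CPM. In IP libraries the medians were 6.18, 10.3 and 9.94 CPM. The ratio of Hbb-bt to Hbb-bs counts had medians in input libraries of 0.143 in dependent, 0.142 in non-dependent and 0.138 in naive mice, and in IP libraries of 0.132, 0.161 and 0.142, with overlapping ranges in both. In K14 and L23 it was 0.177 and 0.139 in input, within the range of 0.0863 to 0.187 of the dependent and non-dependent libraries. In IP the ratio of K14 was 0.197, above the other naive mice, whose highest was 0.161, and below the highest non-dependent library at 0.205.

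In batch I, which held no naive mice, globin levels of dependent mice lay below those of non-dependent mice. Input Hbb-bs ran from 26.6 to 116 CPM in 7 dependent mice and from 122 to 238 CPM in 9 non-dependent mice, without overlap. Input Hba-a1 ran from 38.3 to 156 CPM in these dependent and from 161 to 335 CPM in these non-dependent mice, also without overlap, and so did Hbb-bt, at 3.36 to 16.7 and 17.3 to 39.5 CPM. Of the 20897 genes tested in input libraries, 8 (0.0383%) were lower in this batch without overlap, these 3 among them, and 0.0335% were higher without overlap. In IP libraries of the same batch, Hbb-bs had a median of 24.3 CPM in 7 dependent and 50.1 CPM in 7 non-dependent mice, and the ranges met. The within-batch log2 difference of Hbb-bs in input libraries was -1.45 in batch I, 0.41 in batch J and -0.48 in batch K, on log2(CPM + 0.5). In IP libraries it was -1.24, -0.19 and -0.15. The fit over all batches gave -0.56 ± 0.31 in input and -0.57 ± 0.24 in IP libraries, and that over batches J and K alone gave 0.58 ± 0.41 and 0.08 ± 0.27. The difference in input over all batches was -0.84 ± 0.24 without J06. In bulk libraries, fewer cells of a type and less RNA per cell cannot be told apart.

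Alas2 was low and differed in level between batches. In input libraries its lowest, median and highest levels were 0.183, 1.63 and 4.59 CPM in dependent mice, 0.234, 3.30 and 8.01 CPM in non-dependent mice, and 0.152, 2.04 and 9.81 CPM in naive mice. In IP libraries they were 0, 0.637 and 2.84 CPM in dependent, 0.229, 1.17 and 4.97 CPM in non-dependent, and 0, 0.649 and 2.18 CPM in naive mice. The 2 IP libraries at 0 were those of dependent mouse J10 and naive mouse J07. By batch, the input median was 3.43 CPM in I, 0.902 CPM in J, 0.849 CPM in K and 3.59 CPM in L. The fitted difference between dependent and non-dependent mice was -0.88 ± 0.34 in input libraries, but 0.12 ± 0.62 over batches J and K alone. Between dependent and naive mice it was -0.16 ± 0.36, and -0.50 ± 0.33 without J06.

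**Figure D3:**
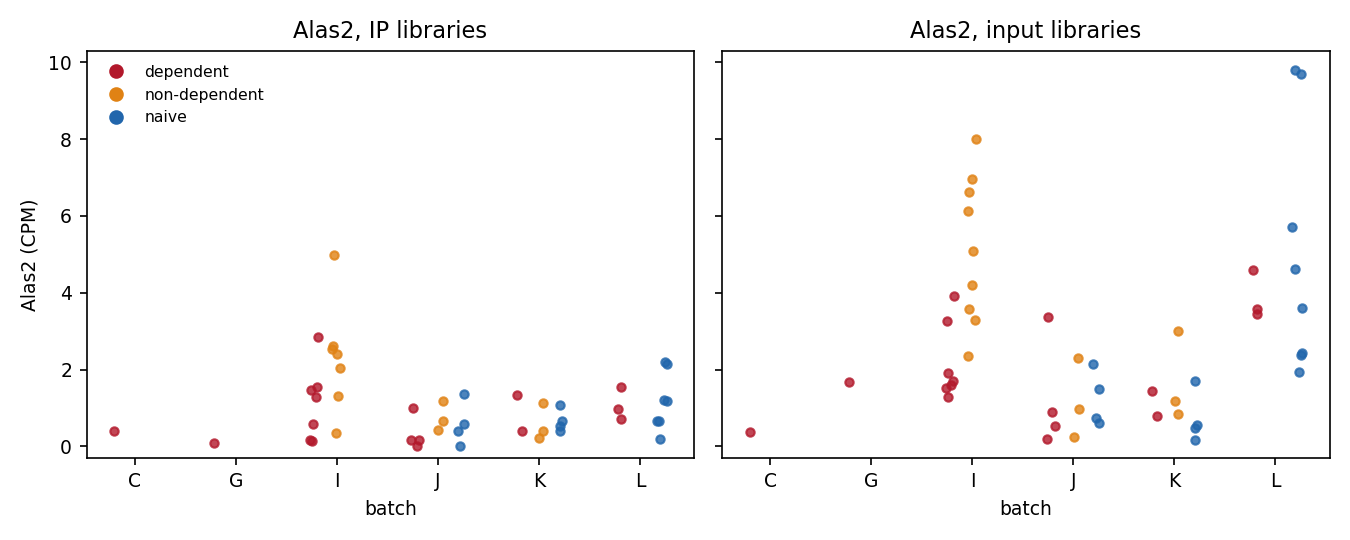
Alas2 in CPM for each IP library (left panel) and each input library (right panel), by batch and treatment. Each point is a library. Input medians lie at 3.43 and 3.59 CPM in batches I and L and at 0.902 and 0.849 CPM in batches J and K.

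All 5 genes were lower in the astrocyte-ribosome fraction than in the tissue it came from. Hba-a1 had a mean of 78.7 ± 37.8 CPM in IP libraries, against 265 ± 174 CPM in input libraries of the same 46 mice (SD), and was lower in IP in 46 of 46. The log2 difference, with the mouse as a block, was -1.50 ± 0.06 (adjusted p = 1.56e-30, edgeR's quasi-likelihood test). Hbb-bs had a mean of 64.3 ± 31.1 CPM in IP libraries, against 229.7 ± 156 CPM in input libraries, a log2 difference of -1.57 ± 0.06 (adjusted p = 6.98e-32 by the same edgeR test), and was lower in all 46. Hbb-bt had a mean of 9.40 ± 5.07 CPM in IP libraries, against 33.3 ± 25.9 CPM in input libraries and differed by -1.57 ± 0.08 (edgeR adjusted p = 1.74e-27), again in all 46. Of all genes tested, 73.1% of 24033 were called in this comparison: 41.3% were called lower in IP, 31.8% were called higher, and the median log2 difference was -0.16. A call of lower was thus common among all genes.

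Hba-a2 had a mean of 15.96 ± 8.96 CPM in IP libraries, against 45.0 ± 19.6 CPM in input libraries of 15 naive mice and was lower in IP in all 15. Without K14 the means were 17.1 ± 8.09 CPM in IP and 48.1 ± 15.9 CPM in input libraries. Its log2 difference over all 46 mice, to which mice with a handful of counts add little, was -1.28 ± 0.08 (edgeR adjusted p = 1.04e-27). Alas2 had a mean of 1.05 ± 0.964 CPM in IP libraries, against 2.68 ± 2.33 CPM in input libraries, was lower in IP in 38 of 46 mice, and differed by -1.10 ± 0.15 (edgeR adjusted p = 7.66e-10). Ranked from the lowest difference of 24033 genes, Hbb-bs stood at 1048, Hbb-bt at 1055, Hba-a1 at 1277, Hba-a2 at 2247 and Alas2 at 3651. For scale, 6 of 6 neuron markers were lower in IP with a median of -1.297, 5 of 5 oligodendrocyte markers with -1.36 and 10 of 10 endothelial markers with -1.04. Microglia, mural and platelet lists had 7 of 7, 5 of 7 and 3 of 4 tested genes lower in IP, with medians of -0.99, -1.17 and -0.85. All these counts stand against 41.3% of all genes called lower. In the mural list Pdgfrb was higher in IP, by 1.89 ± 0.08. The neutrophil and lymphocyte lists held tested genes near 0 in IP, such as Cxcr2, with 11 counts over IP and 95 over input libraries. Such genes passed the filter on low counts mainly through input libraries, so no count is given for these lists. No test was made between the globin genes and these lists.

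**Figure D4:**
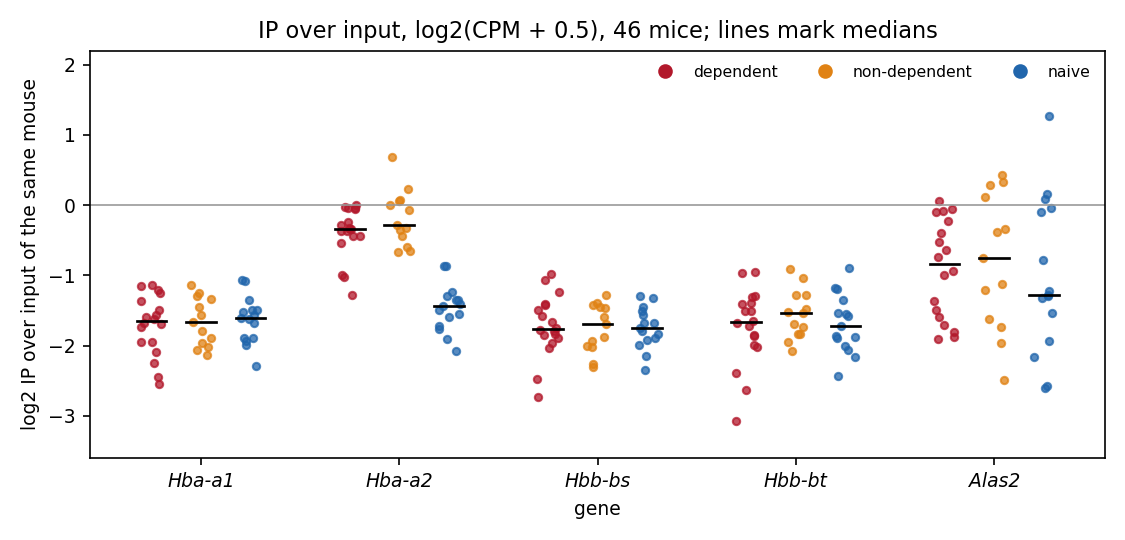
Difference between the IP and the input library of the same mouse on log2(CPM + 0.5), for 46 mice, by gene and treatment. Each point is a mouse and each line a median. Every mouse lies below 0 for Hba-a1, Hbb-bs and Hbb-bt. For Hba-a2 in dependent and non-dependent mice both levels are below 1 CPM, so the added 0.5 draws the differences towards 0.

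The division between the alpha-globin copies did not differ detectably between IP and input RNA of naive mice. In 15 naive mice with both libraries the Hba-a2 share averaged 16.1 ± 4.57% in IP and 15.6 ± 4.48% in input libraries (SD). K14 had 0% and 0.0741%, and without it the shares were 17.2 ± 1.09% in IP and 16.7 ± 1.37% in input libraries. The mean difference was 0.492 percentage points with an SD of 1.67, and it was higher in IP in 9 of 15 mice (p = 0.268, exact two-sided sign-flip permutation test). Without K14 it was 0.532 (p = 0.263 by the same permutation test). Within batches the difference was -1.06 in 4 mice of batch J (exact p = 0.5), 0.480 in 4 mice of batch K, K14 among them (exact p = 0.5), and 1.38 in 7 mice of batch L (exact p = 0.03125, unadjusted, 6 of 7 higher in IP). With 4 mice the smallest p possible was 0.125. The batches thus gave different signs, and the difference between batches was not tested.

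Across mice, Hba-a1, Hbb-bs and Hbb-bt varied as a unit. Over 49 input libraries, on log2(CPM + 0.5), Hba-a1 and Hbb-bs had a Pearson r of 0.966 and a Spearman rho of 0.923. Hba-a1 and Hbb-bt gave 0.966 and 0.941, and Hbb-bs and Hbb-bt 0.977 and 0.960. For all of these the permutation p was 1e-05, the smallest that 100000 permutations can give, and 1.67e-05 after Benjamini-Hochberg adjustment over 10 relations. Without the 2 mice farthest from the median on the first gene, r was 0.948, 0.947 and 0.965. Within batches I, J, K and L, r of Hba-a1 and Hbb-bs was 0.996, 0.961, 0.855 and 0.957. For Hba-a1 and Hbb-bt it was 0.990, 0.946, 0.838 and 0.954, and for Hbb-bs and Hbb-bt 0.988, 0.992, 0.881 and 0.960. Hba-a2, whose values fall into separate clusters, was left out of these relations.

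**Figure D5:**
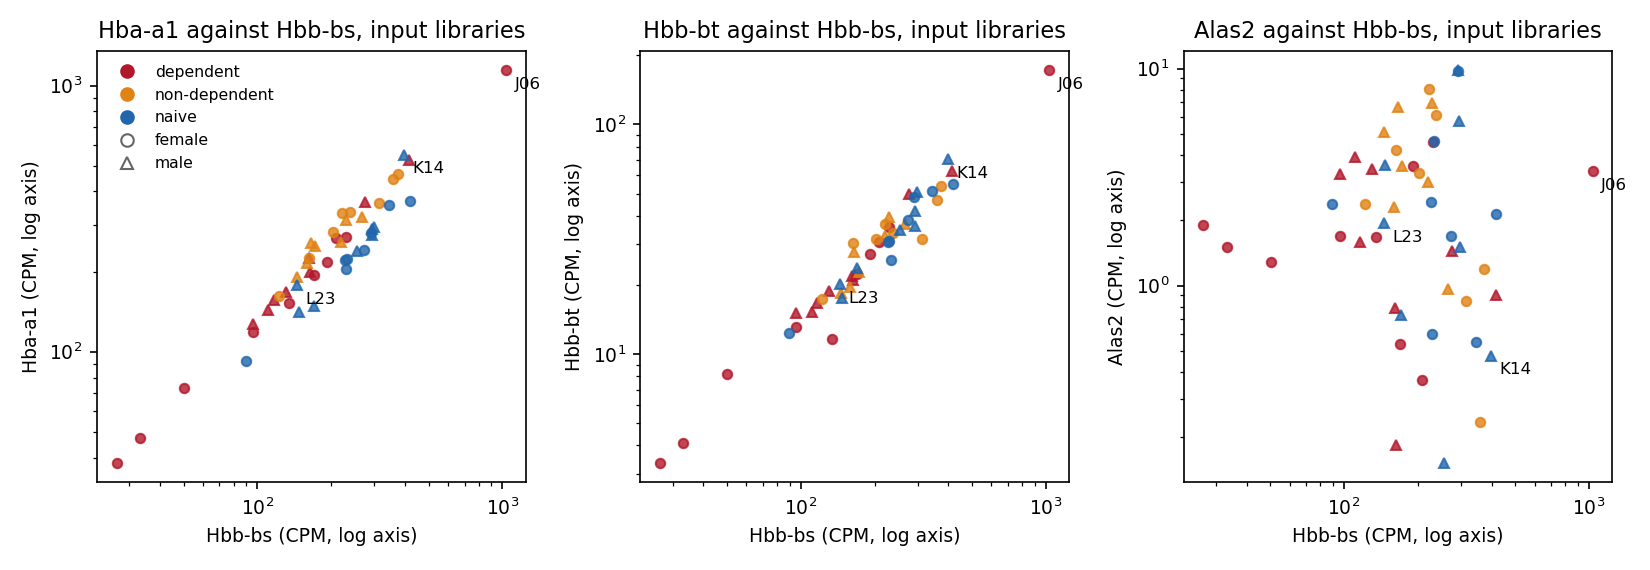
Hba-a1, Hbb-bt and Alas2 against Hbb-bs in 49 input libraries, in CPM on log axes, by treatment and sex. Hba-a1 and Hbb-bt follow Hbb-bs with r of 0.966 and 0.977, and the naive mice other than K14 and L23 lie lower in Hba-a1. K14 and L23 were set apart by their Hba-a2 counts, and reads can be divided between the alpha copies, so nothing is read from this. Alas2 shows no pooled relation (r = -0.03).

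The same mice were high or low in both fractions. Input and IP levels had r of 0.908 for Hba-a1, 0.927 for Hbb-bs and 0.885 for Hbb-bt over 46 mice, with rho of 0.858, 0.900 and 0.824 (adjusted permutation p = 1.67e-05 each). Without the 2 farthest mice r was 0.872, 0.888 and 0.824. Within batches I, J, K and L, r was 0.960, 0.788, 0.931 and 0.923 for Hba-a1 and 0.942, 0.841, 0.831 and 0.928 for Hbb-bs. For Hbb-bt it was 0.923, 0.730, 0.905 and 0.849. For Alas2, r between fractions was 0.532 and rho 0.522 (adjusted permutation p = 0.000186 and 0.000486), and r was 0.513 without the 2 farthest mice. Within batches I, J, K and L, of 14, 11, 9 and 10 mice, r was 0.466, 0.596, -0.353 and 0.496, and none passed (adjusted permutation p from 0.0796 to 0.502). The value in K had the opposite sign. With the mean of each treatment, sex and batch removed, r was 0.237 over 41 mice and did not pass (adjusted permutation p = 0.135).

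Alas2 followed the globin genes within some batches and not across the pooled mice. Pooled over 49 input libraries, r was -0.002 with Hba-a1, -0.03 with Hbb-bs and 0.009 with Hbb-bt (adjusted permutation p = 0.987 each), and rho was -0.024, -0.106 and -0.042. With the mean of each treatment, sex and batch removed, r was 0.615, 0.625 and 0.626 over 44 mice (adjusted permutation p = 1.11e-05 each), and 0.525, 0.537 and 0.540 without the 2 farthest. Within batch I, with 16 mice, r was 0.797, 0.774 and 0.780 (adjusted permutation p = 0.000233 each). In batch L, with 11 mice, it was 0.685, 0.750 and 0.736 (adjusted permutation p from 0.0114 to 0.0212). In batch J it was 0.488, 0.536 and 0.546 and did not pass (adjusted permutation p from 0.0979 to 0.126), and in batch K it was -0.148, -0.232 and -0.137 over 9 mice (adjusted permutation p from 0.684 to 0.732). Batches I and L were those with high Alas2 and lower globin, with input Hbb-bs averaging 137 CPM in I, 335 in J, 291 in K and 206 in L.

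None of the 5 genes passed edgeR's quasi-likelihood test between females and males. In IP libraries Hbb-bs averaged 67.7 ± 38.2 CPM in 24 females and 61.6 ± 21.8 CPM in 20 males, with a fitted log2 difference of 0.15 ± 0.18 (edgeR adjusted p = 0.985). In input libraries it averaged 247 ± 199 CPM in 24 females and 210.0 ± 88.3 CPM in 23 males, with a difference of 0.20 ± 0.23 (edgeR adjusted p = 0.988). For the other 4 genes the differences lay between -0.47 ± 0.38 (Alas2) and 0.25 ± 0.21 (Hbb-bt) in IP libraries and between -0.05 ± 0.26 (Alas2) and 0.45 ± 0.55 (Hba-a2) in input libraries. The test called 0.0486% of all genes in IP and 0.0526% in input libraries. At an unadjusted p under 0.05 it counted 1122 of 20580 genes in IP and 1069 of 20897 in input libraries, none of the 5 among them.

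Most markers of red cells were near 0, with Bpgm as the main exception. Of 16 red cell genes found in the table, 11 had a median count of 0 over the IP libraries and 10 over the input libraries, among them the band 3 anion exchanger (Slc4a1) and the transcription factor Gata1. Slc4a1 had a mean of 0.0384 ± 0.128 CPM in IP libraries, against 0.118 ± 0.172 CPM in input libraries. The summed list ran from 109 to 209.9 CPM in dependent, 100.2 to 215 in non-dependent and 118 to 203 in naive IP libraries, and from 49.4 to 137, 51.8 to 133 and 53.8 to 149 CPM in input libraries. Most of that sum was Bpgm, an enzyme of red cell metabolism, which averaged 152 ± 31.8 CPM in IP libraries, against 78.4 ± 22.6 CPM in input libraries, a log2 difference of 1.20 ± 0.04 (edgeR adjusted p = 5.03e-36). Epor, the erythropoietin receptor, averaged 7.67 ± 3.55 CPM in IP libraries, against 19.2 ± 8.19 CPM in input libraries. Ermap averaged 2.48 ± 1.47 CPM in IP libraries, against 0.544 ± 0.499 CPM in input libraries. Of the list 11 genes were tested for IP over input, some of them sparse in a fraction. Klf1, for example, had 439 counts over IP and 203 over input libraries. Such genes can pass the filter on low counts through the fraction where they are high, so no count of calls is given. In none of the treatment comparisons did a tested red cell gene pass, with 6 genes tested in IP and 4 in input libraries. These comparisons called 0.428% to 4.49% of all genes in IP and 0.120% to 2.16% in input libraries. With so few genes tested, nothing is read from this.

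Neutrophil genes summed to 0 to 3.19 CPM in dependent, 0 to 1.79 in non-dependent and 0 to 3.40 in naive IP libraries, and to 0.0535 to 2.86, 0 to 1.40 and 0.315 to 15.3 CPM in input libraries. S100a9, which codes for a neutrophil calcium-binding protein, had counts in 2 of 18 dependent IP libraries, with 4 counts in all, in 2 of 13 non-dependent ones, with 24, and in 8 of 15 naive ones, with 115. In input libraries it had 40 counts in dependent, 21 in non-dependent and 329 in naive mice. It passed the filter on low counts mainly through the naive libraries, so no test of it is given. Platelet genes summed to 6.09 to 15.2 CPM in dependent, 3.92 to 14.6 in non-dependent and 5.34 to 15.7 CPM in naive input libraries. The part of blood content in the globin differences was not tested.

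Other globins of the clusters were near 0. The embryonic genes Hba-x and Hbb-bh1 had no count in any library, and Hbb-bh2 had 1 count in all. Hbb-y, also embryonic, had 46 counts over 46 IP libraries, against 134 over 49 input libraries. Its highest level was 0.459 CPM in IP and 1.10 CPM in input. It passed the filter on low counts through the input libraries, so no test of it is given. Hbq1a, a theta-globin gene beside the alpha copies, had a mean of 0.187 ± 0.350 CPM in IP libraries, against 0.994 ± 0.911 CPM in input libraries. It had 175 counts over IP libraries, 22 of which were at 0, and 818 over input libraries. Since its counts lay mainly in input, no test of it is given. Of that list 3 genes passed the filter, and no count of calls is given for them. Globins of non-erythroid cells were more abundant: Cygb and Ngb (cytoglobin and neuroglobin) were lower in IP, with log2 differences of -1.28 ± 0.04 and -1.23 ± 0.09 (edgeR adjusted p = 4.11e-36 and 1.64e-19). Mb, myoglobin, had counts in 11 of 18 dependent IP libraries, with 84 counts in all. It had counts in 7 of 13 non-dependent ones, with 41, and in 2 of 15 naive ones, with 5. In input libraries it had 98 counts in dependent, 70 in non-dependent and 33 in naive mice. The naive IP libraries could not have carried it past the filter on low counts, so no test of it is given.

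Most other genes of heme synthesis were higher in IP than in input libraries. Of 10 genes of the pathway other than Alas2, 8 were higher in IP, 1 was lower and 1 did not pass, against 31.8% higher and 41.3% lower of all genes, with a median log2 difference of 0.39 against -0.16 over all genes. Fech, which inserts iron to complete heme, and Urod were higher by 0.68 ± 0.05 and 0.56 ± 0.04 (edgeR adjusted p = 7.32e-20 and 1.46e-19), and Cpox was lower, at -0.76 ± 0.04 (edgeR adjusted p = 4.39e-24). Alas1 had a mean of 32.6 ± 10.4 CPM in IP libraries, against 28.1 ± 10.7 CPM in input libraries. Between dependent and naive IP libraries 1 of the 10 was higher, the mitochondrial transporter gene Abcb10 (0.60 ± 0.16, edgeR adjusted p = 0.0190), against 2.68% of all genes. None passed between dependent and naive input libraries (median 0.05), where 2.16% of all genes were called.

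Of 8 genes that clear heme and free haemoglobin, 4 were higher in IP, 2 were lower and 2 did not pass, against 31.8% higher and 41.3% lower of all genes. Hmox1, heme oxygenase, had a mean of 19.5 ± 6.04 CPM in IP libraries, against 4.69 ± 2.00 CPM in input libraries, a log2 difference of 2.29 ± 0.07 (edgeR adjusted p = 6.29e-38). Hpx, the heme-binding protein hemopexin, had a mean of 1.71 ± 1.02 CPM in IP libraries, against 0.226 ± 0.333 CPM in input libraries. It had 1580 counts over IP and 194 over input libraries. Since its counts lay mainly in IP, no test of it is given, and its place among the 4 higher genes is not read. Hmox1 was also higher in dependent than in naive IP libraries, by 0.41 ± 0.11 (edgeR adjusted p = 0.0237), the single call among the 8, where 4.49% of all genes were called. Blvrb, a biliverdin reductase, was the single call between dependent and non-dependent IP libraries, at 0.38 ± 0.09 (edgeR adjusted p = 0.0142), where 1.53% of all genes were called. No gene of the list passed in any treatment comparison of input libraries, or between the sexes. The treatment comparisons of input libraries called 0.120% to 2.16% of all genes. Those between the sexes called 0.0486% in IP and 0.0526% in input libraries. Nothing is read from the lack of calls among 8 genes.

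Genes around Hba-a2, Hbb-bs and Alas2 were counted by comparison. Of 38 genes starting within 1 Mb, other than Hba-a1, 25 were tested for IP over input, where 8 were higher and 7 lower, against 31.8% and 41.3% of all genes. In the treatment comparisons 20 were tested in each fraction. Between dependent and naive IP libraries 1 was lower, D630024D03Rik (-1.06 ± 0.29, edgeR adjusted p = 0.0237), against 1.81% of all genes, and none was higher. In input libraries none of the 20 passed between dependent and naive mice, where 2.16% of all genes were called, and their median was -0.04. None passed in the other treatment comparisons of input libraries, which called 0.120% and 0.378% of all genes. Around Hbb-bs 12 of 152 genes were tested and 2 were higher in dependent IP libraries, Trim30d (1.96 ± 0.50) and Trim12a (0.78 ± 0.24; edgeR adjusted p = 0.0134 and 0.0458), against 2.68% of all genes. Around Alas2, 17 of 45 genes were tested in IP libraries, and no treatment comparison called one, where 0.428% to 4.49% of all genes were called. With so few genes tested, nothing is read from these counts.

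By likeness across the 49 input libraries, the genes nearest to Hbb-bs outside the 5 were H2afj (r = 0.692), Cadm3 (0.673), Ten1 (0.671), Atp5d (0.668) and Mrps18a (0.666), among 15731 genes with a mean of at least 1 CPM. These lay below the r of 0.977 and 0.966 of Hbb-bt and Hba-a1. Nearest to Hba-a2 were Map1a (0.656), Rgs4 (0.635), Hpgd (0.630), Kcnq3 (0.624) and Cdpf1 (0.621), all above its r of 0.086 with Hba-a1. Since these were picked for likeness to a gene that divides most naive mice from the others, nothing is read from their own levels by treatment.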

How the data were processed

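Gene counts of 95 libraries were used as the authors deposited them, in 1 table of raw counts. Per the labels' protocols, nucleus accumbens punches were split into ribosome-purified (IP) and input RNA, with libraries from a Takara SMART-Seq PLUS kit. The submitters' processing notes name STAR 2.7.10b and the GRCm38 build, with Trimmomatic 0.39 and, for quality checks, FastQC 0.11.9. The counting program, its annotation, its use of strand, its treatment of reads with several matches and the read length are not given in the sources used here.

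Genes were matched to symbols through GENCODE M21, of GRCm38 (55230 of 55471 identifiers). CPM were computed on total counts, and exon lengths were the union of GENCODE exons. IP was compared with input in edgeR 4.0.16 (TMM scaling, filterByExpr, quasi-likelihood F-test, R 4.3.3) with the mouse as a block. Same-numbered libraries come from 1 mouse, per the labels. Treatment and sex were fitted within each fraction over batches I to L, with treatment by sex and batch as terms; mice of C and G were left out of these fits. The contrasts average over the sexes or over the treatments. All 5 genes passed the filter in each fit, which required about 10 counts in enough libraries. Adjusted p-values follow Benjamini and Hochberg over all genes of a fit, called at 0.05. Standard errors of edgeR fits are the log2 difference over the square root of its F. The fits were tried on simulated counts with 100 genes changed by a log2 of 1. Between dependent and naive input libraries 100% were recovered, with 4.76% false among the calls. For IP over input 100% were recovered, with 5.66% false. The simulation gave every gene the same fixed dispersion and held no batch or mouse differences. Its recovery does not carry over to genes as variable as the globins.

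The members, the 14 gene lists (107 of 108 genes matched, Ahsp being the one that was not) and the tests were chosen with earlier results of these data known. Other genes were named by rule: up to 4 of each list with the smallest p, up to 4 called neighbours, and the 5 most alike in log2(CPM + 0.5). Alas1, Slc4a1, Gata1 and the embryonic globins were named for their role. Alternatives were DESeq2 1.42.0, no filter, no batch term, batches J and K alone, no mouse block and pseudocounts of 0.1. Fits without K14 and L23 or J06 were added after the data were seen. Sequences were read from GENCODE transcripts and RefSeq promoter tables (GRCm38.p6, all 5 matched). Replicates are separate mice. Intervals are exact binomial at 95%.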

Additional observations from a re-analysis of the deposited data

Results flagged for a closer look

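For each of the 5 genes, the highest or lowest library was compared with its group of the same treatment, sex and fraction. This gave 5 flags in 60 comparisons, where chance flags about 1 in 20, and 3 of the flags come from 1 library in genes that vary together. Naive female L33 was far below the other naive female input libraries in 3 genes. Its Hba-a1 level was 92.6 CPM, against 205 to 367 CPM in the other 7. Its Hba-a2 level was 17.7 CPM, against 38.5 to 73.3 CPM. Its Hbb-bs level was 89.5 CPM, against 227 to 419 CPM. The Hba-a2 share of this library was 16.1%, within the range of the other naive females. Naive male K14 had an Hba-a2 level of 0 CPM in IP, against 10.2 to 22.2 CPM in the other naive males. Dependent female J06 had an Hba-a2 level of 0.278 CPM in IP, against 0 to 0.0578 CPM in the other dependent females, a difference of a few counts in the dependent IP library with the most Hba-a1.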

How the results depend on the processing

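For IP over input, all 5 genes stayed lower and past the threshold in all 6 alternatives; without the mouse as a block (no replicate block) the log2 differences were -1.55 for Hba-a1, -1.27 for Hba-a2, -1.62 for Hbb-bs, -1.61 for Hbb-bt and -1.08 for Alas2. Pairing by mouse changed no call. DESeq2's size factors moved the median of all genes to -0.30, against -0.16, and the 5 genes to between -1.64 and -1.27. None of 70 values for the sexes passed (lowest adjusted p = 0.483). Their direction turned without J06 in input for Hba-a1 (-0.13), Hbb-bs (-0.045) and Hbb-bt (-0.084), and over batches J and K alone for Hba-a2 in IP (0.0077) and Alas2 in input (0.27). Of 180 treatment values, 176 moved by less than the spread between libraries, though 21 changed sign, 14 of them over batches J and K alone. There dependent minus non-dependent turned by more than that spread for Hba-a1 (0.57), Hbb-bs (0.58) and Hbb-bt (0.85) in input and for Hbb-bt (0.092) in IP. The Hba-a2 difference between dependent and naive mice ran from -7.96 to -6.64 in IP and from -7.48 to -7.03 in input.

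The Hba-a2 share, IP minus input, turned in batch J (-1.06) and passed in batch L (1.38). Alas2 showed no pooled relation with the globin genes. With Hba-a1 its r was positive after removing group means (0.615) and in batches I, J and L (0.797, 0.488 and 0.685). It was likewise positive with Hbb-bs (0.625, and 0.774, 0.536 and 0.750). The values of batch J did not pass. With Hbb-bt the relation passed after removing group means (0.626) and in batches I and L (0.780 and 0.736). Its r was negative and did not pass in batch K (-0.137), with a pseudocount of 0.1 CPM (-0.017) and without J06 (-0.026). Alas2 in input against IP no longer passed after removing group means (0.237) or in batches I, J and L (0.466, 0.596 and 0.496), and turned in batch K (-0.353). The cause of these changes was not tested.

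Counts between 0 and 12 bound what can be said of Hba-a2 outside the naive mice, and Alas2 rests on 0 to 222 counts a library.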
